A study of Mus musculus with 12 samples.

Results

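The genes described here are 10 regulators and markers of the epithelial-mesenchymal transition: the transcription factors Snai1, Snai2, Twist1, Twist2, Zeb1, Zeb2 and Prrx1, the intermediate filament gene Vim and the cadherin genes Cdh2 and Cdh11. They were taken by gene symbol from an expected count table of 55492 features, and each symbol matched 1 feature. Of the 10 genes, 8 had enough counts to be tested. Twist1 and Cdh11 did not, and are described by their counts alone. RNA was sequenced from CCN6KOT cells of a mouse breast tumour, which the labels list as a cell line but call primary cells in the growth protocol, and for which they give a spindle metaplastic condition, in 4 groups of 3 libraries. Cells of the DNTCF4_EZH2 group carried DNTCF4, described by the study as a dominant negative beta-catenin construct, together with EZH2. Cells of the DNTCF4_SET group carried DNTCF4 together with SET, an abbreviation the labels leave unexplained. Cells of the DNTCF4 group carried DNTCF4 and a vector, and cells of the Vector group carried the lentiviral control. Lentiviral transduction was followed by puromycin selection, and the study calls the proteins added to DNTCF4 rescue proteins. All groups came from CCN6KOT cells, and the labels do not say whether a group's 3 libraries are separate cultures. P-values therefore reflect variation among these libraries alone, and that variation may be technical.

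The epithelial-mesenchymal transition is a change of state in which epithelial cells loosen their junctions and take on the shape and motility of mesenchymal cells. Factors of the Snail, Zeb and Twist families bind E-boxes, short DNA motifs of the form CANNTG, and are best known for repressing the E-cadherin gene Cdh1, while Prrx1 is a paired-type homeobox factor of mesenchymal tissue. Vim encodes vimentin, the main intermediate filament protein of mesenchymal cells, and N-cadherin and cadherin 11 are adhesion molecules of mesenchymal cells. Metaplastic breast carcinoma with spindle cells is a tumour type known for a mesenchymal appearance. In Wnt signalling, beta-catenin binds TCF and LEF factors, which recognise motifs that begin with CTTTG, and EZH2 is the enzyme of the Polycomb complex that methylates histone H3 at lysine 27.

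Library totals ran from 23597545 to 33999982 counts, and 15052 genes passed the filter on low counts. Tcf7l2, the gene of the factor usually called TCF4, averaged 45.5 ± 1.77 CPM (the gene's counts relative to the TMM-scaled library total) in DNTCF4_EZH2, 35.2 ± 2.68 in DNTCF4_SET, 39.8 ± 2.41 in DNTCF4 and 11.0 ± 2.48 in Vector (SD, n = 3 each). Ezh2 averaged 449.9 ± 20.5 CPM in DNTCF4_EZH2, 546 ± 33.1 in DNTCF4_SET, 65.4 ± 3.1 in DNTCF4 and 57.9 ± 1.53 in Vector. Both genes were thus higher in the groups that carry the matching construct, and Ezh2 was also high in DNTCF4_SET. Gene counts do not tell a construct's transcript from that of the cell's own gene. Replicate 1 of DNTCF4 stood apart: the chi-square of its counts over genes, divided by the degrees of freedom, was 20.7 and 13.1 against the other libraries of its group, which differed from each other by 3.33. Replicates 1 and 2 of DNTCF4_EZH2 differed by 16.3, and values that hang on these libraries are given with and without them. Among markers of luminal epithelial cells, Krt18 was at 255 CPM in DNTCF4_EZH2, 243 in DNTCF4_SET, 247 in DNTCF4 and 229 in Vector. Cdh1, their defining junction gene, averaged 0.889 ± 0.0861 CPM in DNTCF4_EZH2, 1.01 ± 0.192 in DNTCF4_SET, 0.594 ± 0.187 in DNTCF4 and 0.797 ± 0.33 in Vector, so the epithelial cadherin was low in all of them.

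The promoter sequences of 4 of the factors are shown because these genes stand at the extremes of what follows. Among the tested members Prrx1 differed most from Vector and Twist2 followed it. Twist1 had no count, and Snai1 was abundant without a call. Each is the sequence before the RefSeq start of the gene on GRCm38.p6, read 5′ to 3′ on the gene's strand, and for Prrx1 only the bases before the start of the longest GENCODE transcript are given. Capitals mark every match to CANNTG or to CTTTG with 2 bases after it that are each A or T, on either strand. The positions are chr1:163313711-163313900 for Prrx1 on the minus strand, chr1:91801211-91801460 for Twist2, chr12:33957421-33957670 for Twist1 and chr2:167537945-167538194 for Snai1, all on the plus strand.
Prrx1: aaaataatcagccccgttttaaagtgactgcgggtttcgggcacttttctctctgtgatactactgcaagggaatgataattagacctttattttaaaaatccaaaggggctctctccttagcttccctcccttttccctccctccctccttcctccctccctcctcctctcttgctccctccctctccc
Twist2: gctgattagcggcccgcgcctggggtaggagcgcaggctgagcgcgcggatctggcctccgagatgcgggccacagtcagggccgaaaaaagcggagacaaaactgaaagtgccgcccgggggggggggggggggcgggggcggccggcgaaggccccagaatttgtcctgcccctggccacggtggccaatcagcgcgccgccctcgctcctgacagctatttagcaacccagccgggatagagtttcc
Twist1: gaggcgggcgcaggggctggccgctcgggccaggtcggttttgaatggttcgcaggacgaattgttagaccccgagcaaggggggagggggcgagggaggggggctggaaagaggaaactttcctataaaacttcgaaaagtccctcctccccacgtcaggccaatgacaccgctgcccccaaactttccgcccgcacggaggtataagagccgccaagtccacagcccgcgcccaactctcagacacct
Snai1: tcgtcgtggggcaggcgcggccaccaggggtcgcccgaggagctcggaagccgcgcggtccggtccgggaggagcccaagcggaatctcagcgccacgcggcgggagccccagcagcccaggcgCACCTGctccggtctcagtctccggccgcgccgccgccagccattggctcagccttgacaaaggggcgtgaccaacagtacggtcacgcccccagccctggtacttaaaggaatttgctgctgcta
The Prrx1 sequence is rich in runs of pyrimidines and poor in CpG. Its full window of 250 bases held 4 CpG dinucleotides, against 23 for Twist2, 18 for Twist1 and 27 for Snai1, where the median of 32851 RefSeq windows was 6. Windows of 6 members were searched, and Snai2, Zeb1, Cdh2 and Cdh11 were not among them. Of the 6, only Snai1 had a window with an E-box, at -126 from the start. This E-box reads CAGGTG on the other strand, the form that Snail and Zeb factors favour. A CANNTG was present in 66.2% of all windows, CAGGTG in 17.2% and one of the CTTTG motifs in 14.8%. The windows of Twist1, Twist2, Zeb2, Prrx1 and Vim held neither kind of motif, which says only that these letters are not in those windows. The Vim window lies inside the annotated gene, after its GENCODE start. The Twist2 window lies within an exon of Gm29100, an antisense gene that also overlaps the first Twist2 exon.

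The genes moved in different directions in DNTCF4 cells. Of the 8 tested, 6 were called in DNTCF4 against Vector at an adjusted p under 0.05 (quasi-likelihood test of edgeR, p-values adjusted after Benjamini and Hochberg over all 15052 genes). In that comparison 57.5% of all tested genes were called, so the share of called members was not far from that of genes in general. Prrx1, Twist2, Zeb1 and Zeb2 rose, 4 of 8 where 29.5% of all genes were called higher. Vim and Snai2 fell, 2 of 8 where 28.0% were called lower, and Snai1 and Cdh2 were not called. The libraries of the groups did not overlap for 6 of the 8, as for 59.3% of all genes. The median log2 difference of the 8 was 0.20, against 0.007 over all genes. Because these are bulk libraries, fewer cells that express a gene and less RNA per cell cannot be told apart.

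**Figure D1:**
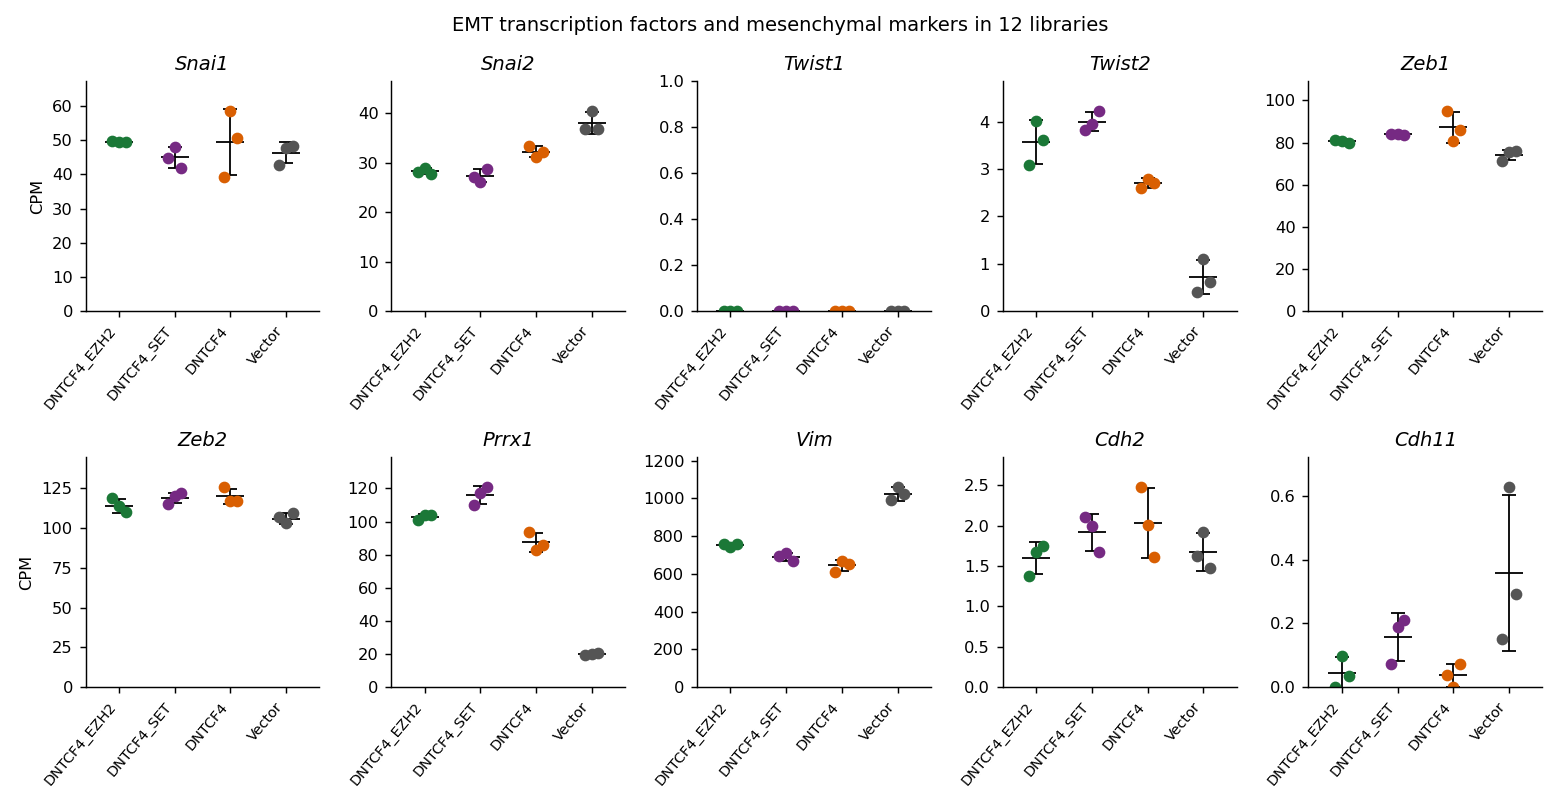
Each panel plots 1 gene's level in CPM on a linear axis that starts at 0, with groups from left to right DNTCF4_EZH2, DNTCF4_SET, DNTCF4 and Vector. Points are the 3 libraries of a group, the wide bar is the mean and the error bar its SD. Prrx1, Twist2, Zeb1 and Zeb2 lie higher in every library with DNTCF4 than in any Vector library, Vim and Snai2 lie lower, and all 12 points of Twist1 are at 0.

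Prrx1 on chromosome 1 (163245119 to 163313710, minus strand, GRCm38), a homeobox factor of limb and craniofacial mesenchyme, had the largest log2 difference from Vector among the tested members. It stood at 101, 104 and 104 CPM in DNTCF4_EZH2 and at 109.9, 117 and 121 CPM in DNTCF4_SET. DNTCF4 libraries held 93.8, 82.6 and 85.9 CPM, and Vector libraries 19.2, 19.9 and 20.4 CPM. Every library with the construct was thus above all 3 Vector libraries, with a wide gap between them. The DNTCF4 level was 4.41-fold that of Vector (log2 difference 2.14, SE 0.0559, edgeR adjusted p = 7.59e-14). Genes called higher by at least this fold made up 2.06% of those tested. On the authors' deposited rlog scale, which shrinks log2 differences, limma gave a difference of 1.26. Both rescue groups lay further from Vector, not nearer to it. DNTCF4_EZH2 was 1.18-fold above DNTCF4 (log2 0.24, SE 0.0487, edgeR adjusted p = 0.00216) and DNTCF4_SET 1.33-fold above it (log2 0.41, SE 0.0487, edgeR adjusted p = 2.46e-05), with no overlap of libraries in either comparison. Against Vector, which these comparisons share, the folds were 5.2 in DNTCF4_EZH2 and 5.84 in DNTCF4_SET. DNTCF4_EZH2 lay below DNTCF4_SET by 0.17 on the log2 scale (95% interval -0.27 to -0.07), with every library lower, and the edgeR adjusted p of 0.0573 missed the threshold.

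Prrx2, the closest relative of Prrx1, ran the other way. It averaged 6.85 ± 0.569 CPM in DNTCF4_EZH2, 6.91 ± 0.581 in DNTCF4_SET, 8.39 ± 0.392 in DNTCF4 and 32.1 ± 1.23 in Vector (SD, n = 3 each). The DNTCF4 level was lower than that of Vector by 1.94 on the log2 scale, 3.82-fold (SE 0.0726, edgeR adjusted p = 6.29e-12). In Vector cells Prrx2 thus had more counts than Prrx1, and in the other groups Prrx1 had more than Prrx2, on a scale that does not allow for gene length.

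The Twist genes encode basic helix-loop-helix factors of the mesoderm. Twist2 on chromosome 1 (91801461 to 91848028, plus strand) was a low gene that rose in DNTCF4 cells. It had 105, 123 and 107 counts in DNTCF4_EZH2, 107, 105 and 139 in DNTCF4_SET, 68, 88 and 74 in DNTCF4 and 11, 30 and 15 in Vector. As CPM the libraries held 3.08, 4.02 and 3.61 in DNTCF4_EZH2, 3.83, 3.95 and 4.22 in DNTCF4_SET, 2.59, 2.8 and 2.71 in DNTCF4 and 0.415, 1.11 and 0.629 in Vector. Vector replicate 2 was the highest of its group and still below every library with DNTCF4. The DNTCF4 level was 3.73-fold that of Vector (log2 1.9, SE 0.23, edgeR adjusted p = 5.22e-06), and the rescue groups stood at 4.9-fold (DNTCF4_EZH2) and 5.52-fold (DNTCF4_SET) of the same Vector libraries. On the deposited rlog scale the difference between DNTCF4 and Vector was 0.35, with an adjusted p of 2.68e-05 by limma.

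Relative to DNTCF4, Twist2 rose 1.48-fold in DNTCF4_SET (log2 0.56, SE 0.17, edgeR adjusted p = 0.0262). Leaving out DNTCF4 replicate 3 raised the adjusted p to 0.0638, past the threshold, as did leaving out replicate 1, 2 or 3 of DNTCF4_SET (0.0541, 0.0629 and 0.0855). In DNTCF4_EZH2 the difference from DNTCF4 was 0.39 on the log2 scale (95% interval 0.02 to 0.77, edgeR adjusted p = 0.114), although the libraries did not overlap. It was called without Vector replicate 2 (adjusted p = 0.0442). The antisense gene Gm29100 had 83 counts over the 3 libraries of DNTCF4_EZH2, 57 in DNTCF4_SET, 80 in DNTCF4 and 28 in Vector. The labels do not name a strand setting, so reads of Twist2 and of this gene cannot be told apart where they overlap.

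Twist1 on chromosome 12 (33957671 to 33959829, plus strand) had 0 counts in each of the 12 libraries. Over their 344523358 counts together, a count of 0 allows a level of up to 0.00872 CPM, from a floor of 3 counts, and of 0.088 to 0.126 CPM in a single library. This covers counting error only. Of its protein-coding neighbours, Ferd3l, 28361 bases away, had 0 to 1 count in a library, and Hdac9, 87751 bases away, had 70 to 157. Twistnb, 516279 bases away, had 504 to 711, and Efcab10, 556404 bases away, had 0 in all libraries. Counts were thus absent from some genes of the region and present for others.

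The Snail genes, zinc finger repressors of epithelial genes, split. Snai1 on chromosome 2 (167538195 to 167542814, plus strand) stood at 49.8, 49.5 and 49.6 CPM in DNTCF4_EZH2 and at 44.8, 48.1 and 42.0 CPM in DNTCF4_SET. DNTCF4 libraries held 39.3, 58.5 and 50.6 CPM and Vector libraries 42.8, 47.8 and 48.4 CPM. The DNTCF4 libraries thus spanned the Vector ones, with replicate 1 below all of them. The log2 difference of DNTCF4 from Vector was 0.099 (95% interval -0.12 to 0.32, edgeR adjusted p = 0.433). Without DNTCF4 replicate 1 it was 0.24 with an adjusted p of 0.00327, so the lack of a call rested on that library, and without DNTCF4 replicate 2 it was -0.05 (adjusted p = 0.662). The direction of the difference thus turned with the library left out. The same library set the comparison of DNTCF4_SET with DNTCF4, where the log2 difference of -0.14 (95% interval -0.36 to 0.08, edgeR adjusted p = 0.339) became -0.29 without it (adjusted p = 0.00155). DNTCF4_EZH2 and DNTCF4 had nearly equal means, 49.6 ± 0.152 and 49.5 ± 9.65 CPM, and the interval of their log2 difference ran from -0.22 to 0.22.

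Snai2 on chromosome 16 (14705852 to 14709385, plus strand), the gene of Slug, fell in steps. It stood at 28.2, 29.0 and 27.7 CPM in DNTCF4_EZH2 and at 27.2, 26.1 and 28.7 CPM in DNTCF4_SET. DNTCF4 libraries held 33.3, 31.1 and 32.2 CPM and Vector libraries 36.8, 40.4 and 36.7 CPM. Neither rescue group overlapped DNTCF4, and DNTCF4 did not overlap Vector. DNTCF4 was 1.18-fold below Vector (log2 -0.24, SE 0.0535, edgeR adjusted p = 0.00131), DNTCF4_EZH2 1.34-fold below it (edgeR adjusted p = 6.76e-06) and DNTCF4_SET 1.39-fold below it (edgeR adjusted p = 2.36e-06). Against DNTCF4 the log2 difference was -0.19 in DNTCF4_EZH2 (SE 0.0539, edgeR adjusted p = 0.0193) and -0.23 in DNTCF4_SET (SE 0.0543, edgeR adjusted p = 0.00552). For DNTCF4_EZH2 the adjusted p rose above the threshold when DNTCF4 replicate 3 was left out (0.0507) and when replicate 1 or 3 of DNTCF4_EZH2 was (0.0614 and 0.0744). In group means Snai2, like Prrx1 and Twist2, lay further from Vector in the rescue groups than in DNTCF4.

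Zeb1 and Zeb2, large factors with a homeodomain between zinc finger clusters, both rose by little in DNTCF4 against Vector. Zeb1 on chromosome 18 (5591860 to 5775467, plus strand) stood at 81.4, 80.6 and 79.6 CPM in DNTCF4_EZH2 and at 84.2, 84.1 and 83.6 CPM in DNTCF4_SET. DNTCF4 libraries held 94.9, 80.6 and 85.9 CPM and Vector libraries 71.4, 75.3 and 75.9 CPM. All libraries with the construct were above all Vector libraries, and the spread was widest in DNTCF4. DNTCF4 exceeded Vector 1.17-fold for Zeb1 (log2 0.23, SE 0.0508, edgeR adjusted p = 0.00116). Without DNTCF4 replicate 1, the highest library, this log2 difference was 0.162 (edgeR adjusted p = 0.0011). DNTCF4_SET was also called above Vector (log2 0.18, edgeR adjusted p = 0.00716), and DNTCF4_EZH2 missed the threshold (log2 0.12, edgeR adjusted p = 0.0565). With the 6 libraries of those 2 groups fitted alone, that p was 0.00393. It also passed without any filter on low counts (0.0424), without replicate 1, 2 or 3 of DNTCF4 (0.00661, 0.0291 and 0.0342) and without DNTCF4_SET replicate 1 (0.0348). Neither rescue group was called against DNTCF4, except that DNTCF4_EZH2 was called lower without DNTCF4 replicate 2 (log2 -0.17, adjusted p = 0.0156).

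Zeb2 on chromosome 2 (44983632 to 45117395, minus strand) stood at 119, 114 and 110.2 CPM in DNTCF4_EZH2 and at 115, 120.4 and 122 CPM in DNTCF4_SET. DNTCF4 libraries held 126, 117 and 117 CPM and Vector libraries 107, 103 and 109.6 CPM. Every library with the construct was above the highest Vector library, by the least in DNTCF4_EZH2. DNTCF4 was 1.13-fold above Vector (log2 0.17, SE 0.0437, edgeR adjusted p = 0.00319), and DNTCF4_SET was above it by the same log2 difference of 0.17 (edgeR adjusted p = 0.00436). In DNTCF4_EZH2 the log2 difference from Vector was 0.11 with an edgeR adjusted p of 0.049, at the edge of the threshold. That call was lost without any filter on low counts (adjusted p = 0.0559). It was also lost without replicate 1 or 2 of Vector (adjusted p = 0.0505 and 0.145), replicate 1 or 2 of DNTCF4_EZH2 (0.118 and 0.101), replicate 2 of DNTCF4 (0.0518) or replicate 2 or 3 of DNTCF4_SET (0.0746 and 0.0719). Zeb2os, which overlaps Zeb2 on the other strand, had 106 counts in DNTCF4_EZH2, 86 in DNTCF4_SET, 66 in DNTCF4 and 121 in Vector. Gm10125, which overlaps Zeb1, had 66 counts in DNTCF4_EZH2, 61 in DNTCF4_SET, 70 in DNTCF4 and 99 in Vector.

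Vim on chromosome 2 (13573927 to 13582826, plus strand) fell in every group with DNTCF4. It stood at 757, 744 and 758 CPM in DNTCF4_EZH2 and at 694, 711 and 669 CPM in DNTCF4_SET. DNTCF4 libraries held 613, 671 and 651 CPM and Vector libraries 989.6, 1062 and 1023 CPM. DNTCF4 had the lowest mean, overlapping DNTCF4_SET, the DNTCF4_EZH2 libraries lay above all 3 of DNTCF4, and all of these lay below every Vector library. The fall in DNTCF4 was 1.59-fold (log2 -0.67, SE 0.0395, edgeR adjusted p = 1.3e-09). Against the same Vector libraries it was 1.36-fold in DNTCF4_EZH2 (edgeR adjusted p = 1.41e-07) and 1.48-fold in DNTCF4_SET (edgeR adjusted p = 7.98e-09). DNTCF4_EZH2 was 1.17-fold above DNTCF4 (log2 0.22, SE 0.0393, edgeR adjusted p = 0.000664). DNTCF4_SET was above DNTCF4 by 0.10 on the log2 scale (95% interval 0.02 to 0.18, edgeR adjusted p = 0.0747). It passed with DESeq2's size factors (0.0466), with DESeq2's Wald test (0.0333) and without DNTCF4 replicate 2 (0.0305). Vim was thus the gene of the set that was called both lower in DNTCF4 than in Vector and higher in a rescue group than in DNTCF4, while the means of Prrx1, Twist2 and Snai2 moved 1 way.

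Both cadherins of the set had few counts, at 2.48 CPM or less in every library. Cdh2 on chromosome 18 (16588877 to 16809246, minus strand), the gene of N-cadherin, stood at 1.38, 1.67 and 1.75 CPM in DNTCF4_EZH2 and at 2.11, 1.99 and 1.67 CPM in DNTCF4_SET. DNTCF4 libraries held 2.48, 2.01 and 1.61 CPM and Vector libraries 1.62, 1.92 and 1.47 CPM. The DNTCF4 and Vector libraries overlapped, and Cdh2 was called in none of the 6 comparisons. The log2 difference of DNTCF4 from Vector was 0.28 (95% interval -0.13 to 0.69, edgeR adjusted p = 0.237).

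Cdh11 on chromosome 8 (102632095 to 102785642, minus strand), known from osteoblasts and invasive mesenchymal cells, had a handful of reads. It had 0, 3 and 1 counts in DNTCF4_EZH2, 2, 5 and 7 in DNTCF4_SET, 1, 0 and 2 in DNTCF4 and 4, 17 and 7 in Vector. Vector replicate 2 alone held 17 of the 28 Vector counts, and it was also the library with the most features detected (24539). Allowing for depth, the summed DNTCF4 counts were 0.0977 times those of Vector (exact 95% counting interval 0.019 to 0.316), those of DNTCF4_EZH2 0.117 times (0.0299 to 0.335) and those of DNTCF4_SET 0.443 times (0.215 to 0.869). These intervals cover counting error only. Fitted without the filter on low counts, Cdh11 was lower than Vector in DNTCF4 (edgeR adjusted p = 0.00133) and in DNTCF4_EZH2 (0.00195) and was not called in DNTCF4_SET (0.234). In that fit the median log2 difference of all genes from Vector was -0.095 in DNTCF4 and -0.094 in DNTCF4_EZH2. Other cadherins too low to test were also higher in Vector. Cdh10 (0.544 CPM), Cdh7 (0.344), Cdh6 (0.308), Cdh4 (0.297) and Cdh8 (0.269) had counts in Vector and 0 in DNTCF4. Cdh15 went the other way, at 0.0339 CPM in DNTCF4 and 0.0126 in Vector. Features with any count numbered, per library, 21480 to 22233 in DNTCF4_EZH2, 21655 to 22734 in DNTCF4_SET, 20125 to 20353 in DNTCF4 and 22889 to 24539 in Vector. The part of this in the Cdh11 counts was not tested.

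Compared per length, as TPM (transcript abundance scaled within each library) over the union of a gene's exons, Vim was the most abundant member in every group. It averaged 546 TPM in DNTCF4_EZH2, 501 in DNTCF4_SET, 462 in DNTCF4 and 723 in Vector. Snai1 came next with 105 TPM in DNTCF4_EZH2, 95.5 in DNTCF4_SET, 104 in DNTCF4 and 95.7 in Vector. It was followed by Snai2 with 48.1 TPM in DNTCF4_EZH2, 46.6 in DNTCF4_SET, 54.2 in DNTCF4 and 62.9 in Vector. The order below them depended on the group through Prrx1. Prrx1 followed Snai2 at 32.0 ± 0.393 TPM in DNTCF4_EZH2 and at 36.0 ± 1.58 TPM in DNTCF4_SET (SD, n = 3 each), above Zeb1 and Zeb2. In DNTCF4 it was at 26.9 ± 1.96 TPM, within the spread of Zeb1 at 28.9 ± 2.61. In Vector it was at 6.0 ± 0.227 TPM, below Zeb1 at 24.2 and Zeb2 at 17.8. Twist2 averaged 3.86 TPM in DNTCF4_EZH2, 4.33 in DNTCF4_SET and 2.9 in DNTCF4, apart from Cdh2 in each. In Vector Twist2 at 0.757 ± 0.373 TPM overlapped Cdh2 at 0.693 ± 0.093. All other neighbours in the order stayed apart in every library, except Cdh11 and Twist1 at the bottom in DNTCF4_EZH2 and DNTCF4. The middle of this order depended on the length used. With the longest transcript in place of the union of exons, Prrx1 lay above Snai2 in DNTCF4_EZH2 (41.4 TPM for Prrx1 and 36.7 for Snai2) and in DNTCF4_SET (46.5 TPM for Prrx1 and 35.5 for Snai2). Zeb1 then overlapped Snai2 in DNTCF4_EZH2 and lay above it in DNTCF4_SET, and in DNTCF4 the neighbours Snai2, Zeb1, Prrx1 and Zeb2 overlapped. In Vector Snai2, Zeb1, Zeb2 and Prrx1 stood in the same order by both lengths. Vim and Snai1 were first and next in all 4 groups by both.

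**Figure D2:**
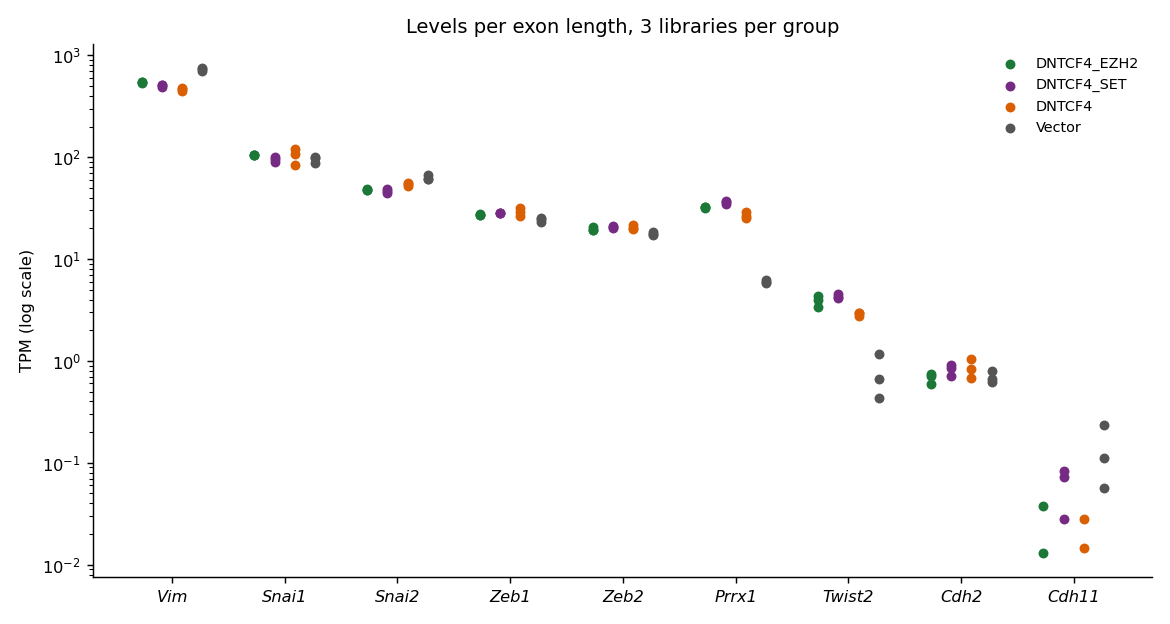
Levels of 9 members in TPM on a log axis, 1 point per library, with groups from left to right DNTCF4_EZH2, DNTCF4_SET, DNTCF4 and Vector. Twist1 and libraries of Cdh11 at 0 are not drawn. Vim is highest and Snai1 next in all groups, and Prrx1 lies above Zeb1 in the rescue groups (means of 32.0 TPM in DNTCF4_EZH2 and 36.0 in DNTCF4_SET) and below Zeb2 in Vector (6.0 TPM).

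Set against DNTCF4, 3 of the 8 tested genes were called in DNTCF4_EZH2, where 25.5% of all tested genes were. Prrx1 and Vim rose (13.0% of all genes were called higher) and Snai2 fell (12.5% were called lower). Libraries did not overlap for 4 of the 8, as for 39.1% of all genes. In DNTCF4_SET 3 were called as well, where 26.0% of all genes were, with Prrx1 and Twist2 higher (12.7% of all genes) and Snai2 lower (13.3%). There libraries did not overlap for 3 of the 8, as for 37.2% of all genes. Both comparisons use the same DNTCF4 libraries. Median log2 differences of the 8 were -0.03 in each comparison, with all genes at -0.00 and -0.004. Zeb1, Zeb2, Snai1 and Cdh2 were called in neither.

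Between DNTCF4_EZH2 and DNTCF4_SET none of the 8 was called in the main edgeR fit, where 5.16% of all genes were, 3.0% higher and 2.17% lower. Libraries did not overlap for 4 of the 8, as for 31.8% of all genes. DESeq2's Wald test called Prrx1 alone among the 8, with an adjusted p of 0.0119. Vim was higher in DNTCF4_EZH2 by 0.12 on the log2 scale (95% interval 0.04 to 0.21, edgeR adjusted p = 0.0884). Without DNTCF4 replicate 1, which belongs to neither group but enters the shared estimate of spread, both Prrx1 (adjusted p = 0.00269) and Vim (0.00879) were called. Prrx1 was also called without DNTCF4 replicate 2 (0.0312) and without DNTCF4_SET replicate 1 (0.044). With the 6 libraries of these groups fitted alone, edgeR called both Prrx1 (adjusted p = 0.00226) and Vim (0.00806). Without the filter on low counts it called both as well (0.0449 for Prrx1, 0.0391 for Vim), and with DESeq2's size factors Prrx1 (0.037).

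Against Vector, 5 of the 8 genes were called in DNTCF4_EZH2 and 6 in DNTCF4_SET, where 57.7% and 58.0% of all genes were called. Prrx1, Twist2 and Zeb2 were higher and Vim and Snai2 lower in both, and Zeb1 was called higher in DNTCF4_SET. In DNTCF4_EZH2 28.7% of all genes were called higher and 29.0% lower, and in DNTCF4_SET 28.1% were called higher and 29.9% lower. Libraries did not overlap for 7 of the 8 in DNTCF4_EZH2 and 6 in DNTCF4_SET, as for 68.1% and 66.1% of all genes. The median log2 difference of the 8 was 0.10 in DNTCF4_EZH2 and 0.18 in DNTCF4_SET, with all genes at -0.008 and -0.022. These comparisons and that of DNTCF4 share the Vector libraries.

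**Figure D3:**
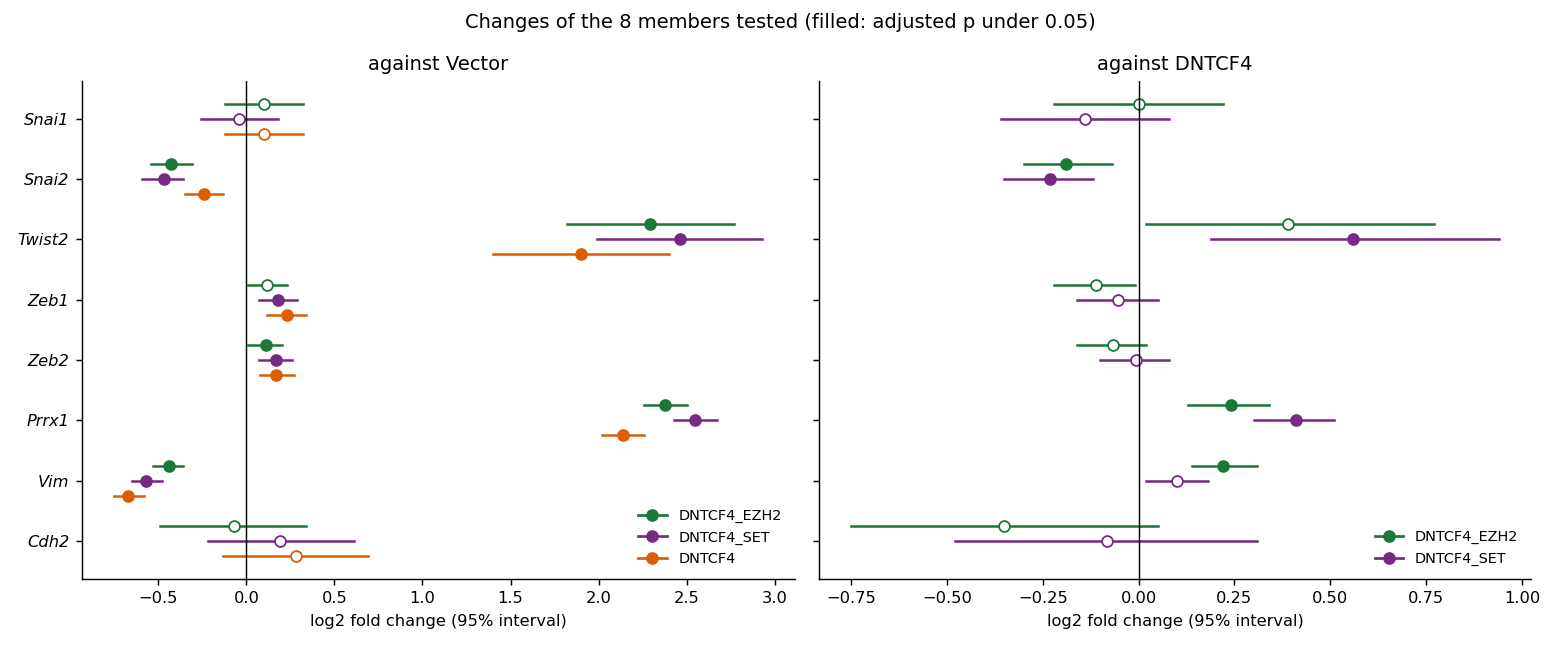
Log2 fold change from edgeR of the 8 tested members, against Vector in the left panel and against DNTCF4 in the right panel, whose axis is narrower. Lines are 95% intervals, filled points have an adjusted p under 0.05 and open points do not. Prrx1 and Twist2 lie far to the right in all 3 comparisons with Vector and Vim and Snai2 to the left of 0, while against DNTCF4 Vim lies to the right of 0 and Snai2 to the left.

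The genes whose pattern over the 12 libraries came nearest to each called member were found by the root mean square difference of log2 CPM, centred on each gene's mean. For Prrx1 they were Rragd at 0.088, Smarca2 at 0.108 and Trf at 0.109. Rragd averaged 43.2 CPM in DNTCF4_EZH2, 54.0 in DNTCF4_SET, 40.7 in DNTCF4 and 9.22 in Vector, and Smarca2, an ATPase of the SWI/SNF complex, averaged 50.2 CPM in DNTCF4_EZH2, 53.5 in DNTCF4_SET, 43.6 in DNTCF4 and 10.6 in Vector. For Vim they were Rnh1 (0.0293), the lamin gene Lmna (0.0403) and Gclm (0.0434). Lmna averaged 354 CPM in DNTCF4_EZH2, 339 in DNTCF4_SET, 319 in DNTCF4 and 493 in Vector. The nearest genes to Twist2 were further off, at 0.214 for Pygo1 and 0.222 for Zdhhc23 and for the homeobox gene Msx1, all low genes as Twist2 is. Snai2 had Samhd1, H3f3b and Rrp1b within 0.0483, Zeb1 had Cox15, Tor1aip2 and Ahctf1 within 0.0303, and Zeb2 had Zfp35, Wdr45b and Hnrnpc within 0.034.

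Other genes of the same programme were followed through lists that were not drawn up independently of these data. In DNTCF4 against Vector, where 29.5% of all tested genes were called higher and 28.0% lower, 5 of 18 tested transcription factors that promote the transition rose and 6 fell, with a median log2 difference of -0.00 against 0.007 over all genes. Sox4, a high mobility group factor, rose to 568 ± 19.1 CPM in DNTCF4, against 326 ± 2.8 in Vector (edgeR adjusted p = 1.39e-11). The forkhead gene Foxc1 fell to 39.4 CPM in DNTCF4, against 93.3 in Vector, and its relative Foxq1 to 25.3 CPM in DNTCF4, against 52.5 in Vector. Set against DNTCF4, 4 rose and 3 fell in DNTCF4_EZH2 (13.0% of all genes were called higher and 12.5% lower), and 1 rose and 4 fell in DNTCF4_SET (12.7% higher and 13.3% lower). Foxq1 was the gene that rose in both, at 33.2 CPM in DNTCF4_EZH2 and 33.1 in DNTCF4_SET, against 25.3 in DNTCF4.

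Of 8 tested factors that oppose the transition, 3 rose and 2 fell in DNTCF4 against Vector (29.5% of all genes higher and 28.0% lower), with a median log2 difference of 0.09. Elf3, an epithelial ETS factor, rose to 5.73 ± 0.475 CPM in DNTCF4, against 1.3 ± 0.113 in Vector (edgeR adjusted p = 1.8e-08). Trp63, the p63 gene of basal epithelium, fell to 0.883 ± 0.134 CPM in DNTCF4, against 8.33 ± 0.51 in Vector (edgeR adjusted p = 1.02e-09). Basal and myoepithelial markers, a list that holds Trp63, summed to 3.19 to 3.7 CPM in DNTCF4 and 9.52 to 10.3 CPM in Vector, with Krt5 at 0 in both. Trp63 made up most of the Vector sum. Krt17 of the same list went the other way, at 2.37 ± 0.201 CPM in DNTCF4 and 1.27 ± 0.27 in Vector. Krt14 averaged 0.113 CPM in DNTCF4 and 0.162 in Vector, and Oxtr 0.0849 and 0.0891.

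Among 22 other tested mesenchymal markers, 6 rose and 13 fell in DNTCF4 against Vector, where 29.5% of all genes were called higher and 28.0% lower. The median log2 difference of the list was -0.19. The falls were led by S100a4, a calcium-binding protein of motile cells, at 4.59 ± 0.39 CPM in DNTCF4 and 32.1 ± 1.98 in Vector, 7.02-fold lower (edgeR adjusted p = 4.26e-13). Col1a1, a fibrillar collagen chain, fell to 279 CPM in DNTCF4, against 1003 in Vector, and Acta2, smooth muscle actin, to 7.15 CPM in DNTCF4, against 30.3 in Vector. Dcn, the proteoglycan decorin, rose 4.27-fold, with 325 ± 18.2 CPM in DNTCF4 and 76.1 ± 2.18 in Vector. In the rescue groups these markers moved 1 way: 13 of 22 rose and 0 fell in DNTCF4_EZH2 against DNTCF4, and 15 rose and 0 fell in DNTCF4_SET, with a median log2 difference of 0.28 in each. Of all genes, 13.0% were called higher in the first of these comparisons and 12.7% in the second. Against Vector, 9 rose and 11 fell in DNTCF4_EZH2 (28.7% of all genes higher and 29.0% lower), and 10 rose and 11 fell in DNTCF4_SET (28.1% higher and 29.9% lower). Dcn reached 465 CPM in DNTCF4_EZH2 and 476 in DNTCF4_SET, against 325 in DNTCF4. The matrix protein Tnc reached 225 CPM in DNTCF4_EZH2 and 228 in DNTCF4_SET, against 152 in DNTCF4. Fibroblast markers, which share Col1a1 and Dcn with this list, summed to 1566 to 1614 CPM in DNTCF4_EZH2, 1557 to 1574 in DNTCF4_SET, 1215 to 1258 in DNTCF4 and 2162 to 2351 in Vector. These markers split between DNTCF4 and Vector. Col1a1, Col1a2 (169 CPM in DNTCF4, 829 in Vector) and Pdgfrb (22.9 CPM in DNTCF4, 39.2 in Vector) were lower in DNTCF4. Dcn and Pdgfra (439.8 CPM in DNTCF4, 322 in Vector) were higher. Of 7 such markers Thy1 and Lum were at 0 in DNTCF4 and in Vector, and the part of fibroblast-like cells in these values was not tested.

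**Figure D4:**
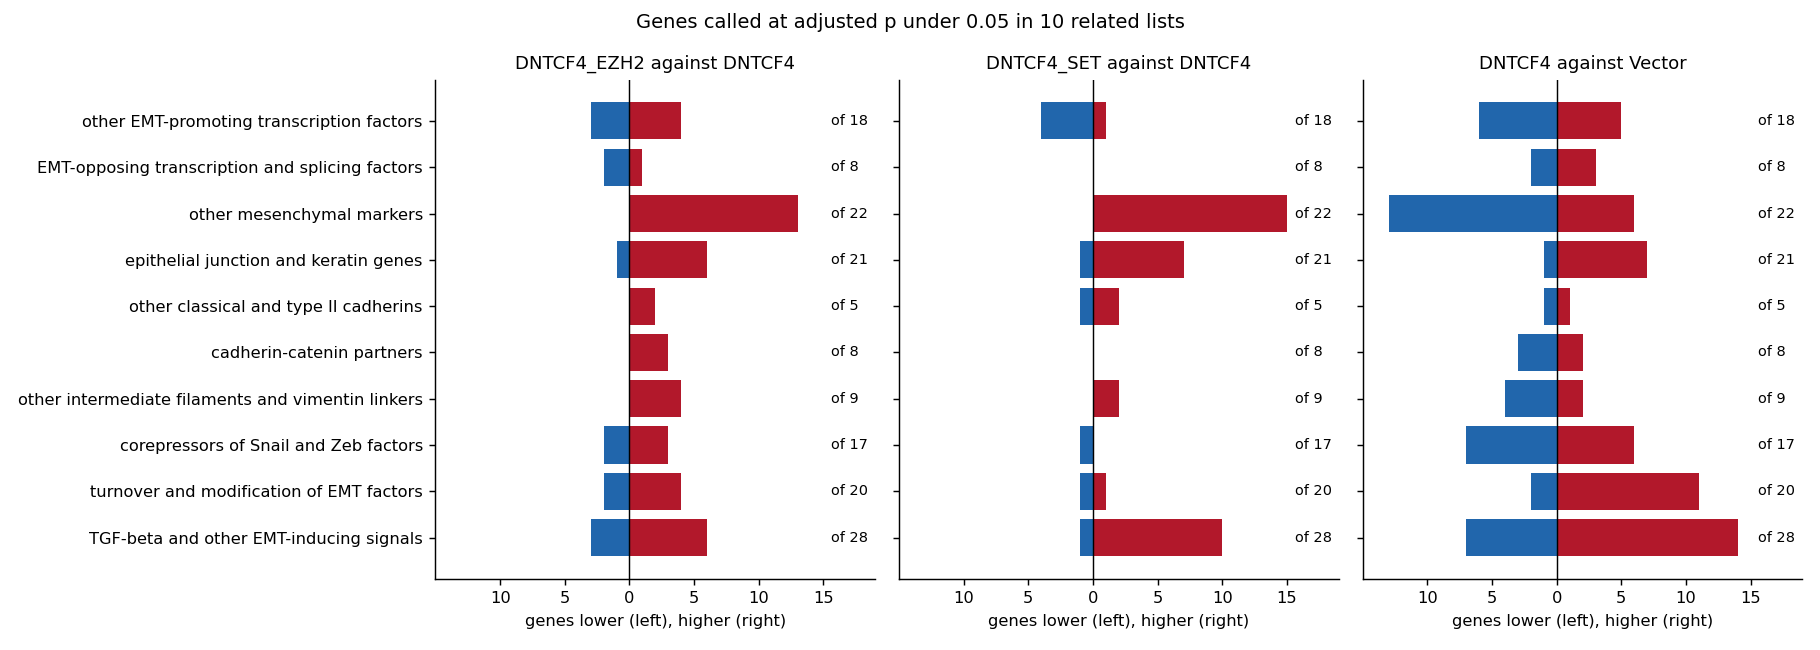
Bars give the number of genes called lower (left of 0) and higher (right of 0) in each of 10 lists, by edgeR at an adjusted p under 0.05, for DNTCF4_EZH2 and DNTCF4_SET against DNTCF4 and for DNTCF4 against Vector, with the number tested at the right. Other mesenchymal markers were called in 1 direction in DNTCF4_EZH2 (13) and DNTCF4_SET (15), and mostly lower in DNTCF4 against Vector (13 lower, 6 higher).

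Of 21 tested epithelial junction and keratin genes, 7 rose and 1 fell in DNTCF4 against Vector, where 29.5% of all genes were called higher and 28.0% lower, so the share called higher was near that of all genes. Set against DNTCF4, 6 rose and 1 fell in DNTCF4_EZH2 (13.0% of all genes higher and 12.5% lower), with a median log2 difference of 0.32, and 7 rose and 1 fell in DNTCF4_SET (12.7% higher and 13.3% lower), with a median of 0.40. Set against Vector, 11 rose and 1 fell in DNTCF4_EZH2 (28.7% of all genes higher and 29.0% lower), with a median of 0.37, and 11 rose and 2 fell in DNTCF4_SET (28.1% higher and 29.9% lower), with a median of 0.61. The desmosomal cadherin Dsc2 averaged 10.9 ± 1.34 CPM in DNTCF4, against 3.62 ± 0.474 in Vector (edgeR adjusted p = 2.62e-08). Krt19 was the gene that fell in DNTCF4, to 12.4 CPM, against 22.2 in Vector, and the median log2 difference of the list was 0.11 in that comparison. Luminal markers as a whole summed to 350.5 to 373 CPM in DNTCF4_EZH2, 346 to 359 in DNTCF4_SET, 328 to 368 in DNTCF4 and 338 to 344 in Vector. Krt18 made up most of each sum, which thus says little about low epithelial genes. Cldn4 averaged 3.46 CPM in DNTCF4_EZH2, 3.92 in DNTCF4_SET, 2.58 in DNTCF4 and 0.98 in Vector. It was called higher in DNTCF4 than in Vector (edgeR adjusted p = 5.66e-06). Epcam, lower still, averaged 0.679 CPM in DNTCF4_EZH2, 0.745 in DNTCF4_SET, 0.223 in DNTCF4 and 0.215 in Vector.

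Of the 18 other cadherins listed, 5 were tested. Cdh13, the truncated T-cadherin, had the most counts among them. It stood at 175 ± 4.04 CPM in DNTCF4_EZH2, 163 ± 8.84 in DNTCF4_SET, 138 ± 8.8 in DNTCF4 and 169.7 ± 3.66 in Vector (SD, n = 3 each). It fell in DNTCF4 against Vector (log2 -0.30, SE 0.0489, edgeR adjusted p = 8.46e-05) and rose against DNTCF4 in DNTCF4_EZH2 (adjusted p = 0.000102) and in DNTCF4_SET (0.00185). Among 8 partners of the cadherins, Ctnnb1, the beta-catenin gene, averaged 1489 ± 76.9 CPM in DNTCF4, against 876 ± 9.08 in Vector, and the linker gene Vcl averaged 85.4 ± 1.44 CPM in DNTCF4, against 145 ± 7.95 in Vector. Of 9 other filament and linker genes, 2 rose and 4 fell in DNTCF4 against Vector (29.5% of all genes higher and 28.0% lower). Plec, a linker of vimentin to other structures, fell to 456 CPM in DNTCF4, against 589 in Vector. In DNTCF4_EZH2 against DNTCF4 4 of the 9 rose, Lmna, Lmnb1, Lbr and Sync, and 0 fell (13.0% of all genes higher and 12.5% lower).

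Corepressors that Snail and Zeb factors recruit showed small differences, with 6 higher and 7 lower of 17 in DNTCF4 against Vector and a median of -0.04. In that comparison 29.5% of all genes were called higher and 28.0% lower, against which the next counts also stand. Ajuba, a LIM protein that binds Snail, averaged 60.9 ± 2.3 CPM in DNTCF4, against 88.7 ± 1.01 in Vector. Limd1 of the same list went the other way, at 67.5 ± 1.03 CPM in DNTCF4 and 53.7 ± 1.03 in Vector (edgeR adjusted p = 1.7e-06). Of 20 genes that modify or degrade these factors, 11 rose and 2 fell, with a median of 0.15. Gsk3b, the kinase that marks Snail for degradation, rose to 260.4 ± 7.61 CPM in DNTCF4, against 183 ± 6.9 in Vector. Btrc, the ubiquitin ligase subunit that reads the mark, also rose (log2 0.32, edgeR adjusted p = 4.58e-05). Fbxl5, another ubiquitin ligase subunit that acts on Snail, averaged 218 ± 18.2 CPM in DNTCF4, against 155 ± 2.02 in Vector. Usp37 of the same list, an enzyme that removes ubiquitin, rose too. It averaged 59.3 ± 4.37 CPM in DNTCF4, against 43.6 ± 0.578 in Vector (edgeR adjusted p = 7.97e-06). Of 28 genes for TGF-beta and other inducing signals, 14 rose and 7 fell. The cytokine gene Il6 rose 6.13-fold, with 17.4 ± 2.14 CPM in DNTCF4 and 2.83 ± 0.0695 in Vector (edgeR adjusted p = 2.26e-11). Hgf, the ligand of the receptor Met, averaged 67.5 ± 5.68 CPM in DNTCF4, against 22.9 ± 1.19 in Vector, while Met itself fell to 124 ± 10.2 CPM in DNTCF4, against 494 ± 10.4 in Vector. Tgfb2, an inducer of the transition, was at 17.6 CPM in DNTCF4_EZH2, 19.9 in DNTCF4_SET, 13.5 in DNTCF4 and 18.2 in Vector. It passed the test in both rescue groups against DNTCF4, whose mean was the lowest of the 4 groups. In DNTCF4_EZH2 against DNTCF4, 13.0% of all genes were called higher and 12.5% lower, and in DNTCF4_SET against DNTCF4 12.7% and 13.3%. The counts that follow are for these comparisons. The corepressors had 3 higher and 2 lower in DNTCF4_EZH2 and 0 higher and 1 lower in DNTCF4_SET. The modifiers had 4 higher and 2 lower in DNTCF4_EZH2 and 1 higher and 1 lower in DNTCF4_SET. The signal genes had 6 higher and 3 lower in DNTCF4_EZH2 and 10 higher and 1 lower in DNTCF4_SET, led by Tgfb2. The 8 tested factors that oppose the transition had 1 higher and 2 lower in DNTCF4_EZH2 and 0 called in DNTCF4_SET. The 8 tested cadherin partners had 3 higher in DNTCF4_EZH2 and 0 called in DNTCF4_SET. Between DNTCF4_EZH2 and DNTCF4_SET, where 5.16% of all genes were called, no list had more than 3 genes called.

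Markers of other cell types were mostly low. Endothelial markers, which include Cdh5, summed to 2.49 to 3.1 CPM in DNTCF4_EZH2, 3.54 to 4.8 in DNTCF4_SET, 3.39 to 4.05 in DNTCF4 and 2.01 to 3.0 in Vector. Leukocyte markers summed to 66.7 to 71.5 CPM in DNTCF4_EZH2, 59.5 to 68.1 in DNTCF4_SET, 44.9 to 65.9 in DNTCF4 and 53.5 to 57.9 in Vector, nearly all of it Cd68, with Tyrobp at 0 in all groups. The 4 adipocyte markers stayed at or below 0.287 CPM in sum. The 4 muscle markers reached 0.557 CPM in DNTCF4_EZH2, 0.859 in DNTCF4_SET, 0.66 in DNTCF4 and 2.74 in Vector, with Myod1 at 0. The 5 neural markers reached at most 2.48 CPM in DNTCF4_EZH2, 2.41 in DNTCF4_SET, 2.2 in DNTCF4 and 3.96 in Vector. The part of such cells in the members' values was not tested.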

How the data were processed

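Total RNA of 12 libraries was measured. Per the submitters' processing notes, the tools were RSEM 1.3.3, STAR 2.7.8a, cutadapt 2.3, FastQC 0.11.8 and DESeq2, on GRCm38. Order, settings and use of strand are not given in the sources used here. Expected counts per gene from RSEM, already whole and not normalised, were deposited by the authors, so rounding changed nothing. RSEM divides reads that map to several genes by a model. The authors also deposited rlog values, regularised log2 counts, used here as an alternative. Groups and replicate numbers came from the sample titles.

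Genes were kept with filterByExpr (minimum count 10, minimum total 15), leaving 15052. edgeR 4.0.16 in R 4.3.3 fitted a mean per group over the 12 libraries with TMM scaling, and quasi-likelihood tests, two-sided, were made for 6 comparisons. P-values were adjusted by Benjamini-Hochberg over all genes tested, with a threshold of 0.05. CPM used the TMM library sizes, and TPM the GENCODE M21 union of exons. Library totals of 23597545 to 33999982 counts make a floor of 3 counts worth 0.088 to 0.126 CPM. Every pair of replicates differed by more than sampling noise (chi-square over degrees of freedom of 2.59 to 20.7), and each library was counted as 1. This does not tell separate cultures from repeated preparations of 1 culture. The pattern of a gene was compared through log2 CPM with a prior count of 2. Positions are 1-based, on GRCm38, and promoter sequences are from RefSeq on GRCm38.p6.

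The members and the gene lists were chosen with earlier results of these data known. Named were all 10 members, up to 4 genes of each list with the smallest p among those called and at 1 CPM or more in the higher group, and the 3 genes nearest to each called member, leaving out predicted models and clone names. Cdh1 and the marker genes were named as checks of the cells. Alternatives were DESeq2 size factors, DESeq2 1.42.0, limma 3.58.1 on the rlog values, no filter, a replicate block, fits of the 6 libraries compared, each library left out, and the longest transcript for TPM.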

Additional observations from a re-analysis of the deposited data

How the results depend on the processing

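Of 864 recomputed differences of single members (8 genes, 6 comparisons, 18 alternatives), 811 kept direction and side of the threshold, 16 lost the call, 23 gained it and 14 changed sign, all 14 of them called in neither fit. Zeb2 in DNTCF4_SET against DNTCF4 was 0.00844 with DESeq2's size factors, 0.00726 with its Wald test and 0.00461 on rlog values. With a library left out, the sign changes lay in the ranges -0.0488 to 0.235 (Snai1, DNTCF4 against Vector), -0.142 to 0.142 (Snai1, DNTCF4_EZH2 against DNTCF4), -0.108 to 0.00884 (Zeb1), -0.0271 to 0.0227 (Zeb2) and -0.216 to 0.0723 (Cdh2) in DNTCF4_SET against DNTCF4, and -0.155 to 0.0482 (Cdh2, DNTCF4_EZH2 against Vector). Counts of called members stayed within 1.5 times in the comparisons with Vector and with DNTCF4, and with a library left out they ranged over 6 to 7 (DNTCF4 against Vector), 2 to 4 (DNTCF4_EZH2 against DNTCF4), 2 to 4 (DNTCF4_SET against DNTCF4), 4 to 6 (DNTCF4_EZH2 against Vector) and 6 to 6 (DNTCF4_SET against Vector). Between DNTCF4_EZH2 and DNTCF4_SET the 0 called members became 1 with DESeq2's size factors, 1 with its Wald test, 2 without the filter, 2 with only the 6 libraries compared and 0 to 2 with a library left out. All genes called there, 777, became 2177 with only those 6 libraries and 359 to 1979 with a library left out, highest without DNTCF4 replicate 1 and at most 439 without any 1 library of the groups compared. For DNTCF4_SET against DNTCF4, 3914 genes called became 2532 with only the 6 libraries. The cause was not tested. Per length, the longest transcript in place of the union of exons gave mean TPM over the 12 libraries of 76.4 for Snai1, 40.4 for Snai2 (52.9 with the union), 36.6 for Zeb1 (27.0), 32.8 for Zeb2 (19.6), 32.6 for Prrx1 (25.2), 691 for Vim (558) and 0.971 for Cdh2 (0.763). TPM is scaled within a library over all genes, so Snai1 and Snai2 moved although their own lengths were the same in both. Equal replicate numbers showed no clear pairing of the libraries, which 3 libraries per group are too few to settle. Correlations of deviations from the group means ran from -0.091 to 0.15, the highest in DNTCF4_SET against Vector. Of the 6 libraries of a comparison, 0 to 4 matched best the one with their own number, with 4 in DNTCF4_SET against Vector. With the numbers as a replicate block, 8584 genes were called in DNTCF4 against Vector in place of 8653, with 6 members in both, and among members the one call it changed was Zeb2 in DNTCF4_EZH2 against Vector (log2 0.11, adjusted p = 0.0604). The median of all genes in DNTCF4 against Vector was -0.112 by DESeq2's Wald test, which took in more low genes. At this depth Twist1 and Cdh11 did not pass the filter on low counts.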
